A study of Mus musculus with 12 samples.

Results

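The genes described here are 10 members of the JAK/STAT signalling pathway, namely the inhibitors Socs1, Socs2, Socs3, Socs5 and Cish, the transcription factors Stat3, Stat5a and Stat5b, and the receptor chains Lifr and Il6st (gp130). They were chosen by name, and their array elements were found by the transcript accession that the scanner files give. An element is a probe of the array, and 15 of the 41174 distinct non-control elements belonged to these genes (5 to Lifr, 2 to Stat5b and 1 to each of the others). In all, 26690 elements could be paired with a symbol, for 18217 gene symbols.

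Cells were 3T3-L1, a mouse embryonic fibroblast line that becomes adipocytes on hormonal induction. Untreated cells were taken from confluent cultures just before induction (0 h), in medium with 10% newborn bovine serum. Induced cells were taken 6 h after a change to medium with 10% fetal bovine serum, 0.5 mM isobutylmethylxanthine (an inhibitor of cAMP breakdown), 1 µM dexamethasone (a glucocorticoid) and 5 µg/ml insulin, so the kind of serum and the hormones changed together. Lysates of both were separated on sucrose gradients. The non-polysomal pool held gradient fractions 5 to 7 and the polysomal pool fractions 9 to 11, and fraction 8 went into neither. Each of the 4 groups had 3 arrays, from biological replicates of 1 cell line.

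Cytokines of the interleukin-6 family, among them Lif, bind a receptor that contains gp130, and growth hormone and prolactin use other receptors. In each case a JAK kinase on the receptor phosphorylates STAT proteins, which dimerise, enter the nucleus and activate genes. Genes of the SOCS family are among these targets, and their products bind the receptor or the JAK and end the signal. In preadipocytes, Lif signals through Lifr and gp130, and STAT5 proteins are known to act early in adipogenesis.

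Signals are given as log2 scaled intensity, made comparable between arrays by spike-ins (viral RNA added to each RNA pool). Before scaling, the non-polysomal arrays had a 75th percentile of intensity between 241 and 281, and the polysomal arrays one between 426 and 567. The spike-in offset was -0.35 ± 0.14 (SD, n = 3) on the log2 scale on the polysomal arrays at 6 h and 0.095 to 0.137 on average in the other groups. After scaling, the median change of all elements in the polysomal fraction was 0.54, and it was also 0.54 over the 11570 elements that were well above background on no array. The changes of the members in that fraction are therefore first given relative to this median. For the members these values were 1.36 for Socs1, 5.29 for Socs2, 1.66 for Socs3, -0.88 for Socs5 and 0.71 for Cish. They were -0.76 for Stat3, -1.27 for Stat5a, -1.497 and -0.97 for the Stat5b elements and 0.29 for Il6st. The part of the offset in the results was not tested. Markers of preadipocytes and fibroblasts were well above background on all 12 arrays for 8 of 8 genes. Of the 5 mature adipocyte markers, 4 were so too, among them Fabp4, and Lep was on no array. The summed intensity of 4 endothelial markers was 35 to 38.9 on the polysomal arrays at 6 h and 7.35 to 9.88 in the other groups, with Cdh5 as the only marker that was well above background. That of 4 macrophage markers was 32.6 to 120 and that of 4 epithelial markers 52 to 116 over all groups, and Csf1r and Krt5 were the only ones on all arrays. Their part in the results was not tested. On arrays of cultured cells, fewer cells with a transcript and less of it per cell cannot be told apart.

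Of the 15 elements, 12 were well above background on all 12 arrays. The exceptions were the Socs2 element, which was so on 2 of 3 polysomal arrays at 0 h, and 2 of the 5 Lifr elements in the non-polysomal fraction.

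The first comparison asked how the translated pool of each mRNA changed over 6 h of induction. In the polysomal fraction, the transcripts of Socs1, Socs2, Socs3, Cish and Il6st and 4 of 5 Lifr elements rose, whereas those of Socs5, Stat3 and Stat5a and both Stat5b elements fell. In numbers, 9 of 15 elements rose and 5 fell (limma, adjusted p below 0.05), against 50.7% of all elements that rose and 11.7% that fell. Over the elements well above background on every array of at least 1 group, as all 15 were, 56.7% rose and 18.6% fell. The median change of the 15 was 0.49, close to the median of all elements, and it was the value of a Lifr element. Since 5 of the 15 elements are of Lifr and 2 of Stat5b, counts and medians here and below are over elements, not genes. By role, 4 of 5 SOCS elements rose, 4 of 4 STAT elements fell and 5 of 6 receptor elements rose. With scaling to the 75th percentile of each array instead of the spike-ins, 5 rose and 5 fell, against 22.8% and 20.7% of all elements, since the median of all elements then moved by -0.48. In the non-polysomal fraction 6 elements rose and 4 fell, against 20.6% and 19.6% of all elements, with a median of 0.39 for the 15 and 0.039 for all. Over the elements that were well above background by the same rule, 32.7% rose and 30.9% fell there. Without replicate 1, 5 elements rose in the polysomal fraction, and without replicate 2, 2 fell. The shares of all elements were not counted in these smaller fits, so a lower count is not a result about the members.

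**Figure D1:**
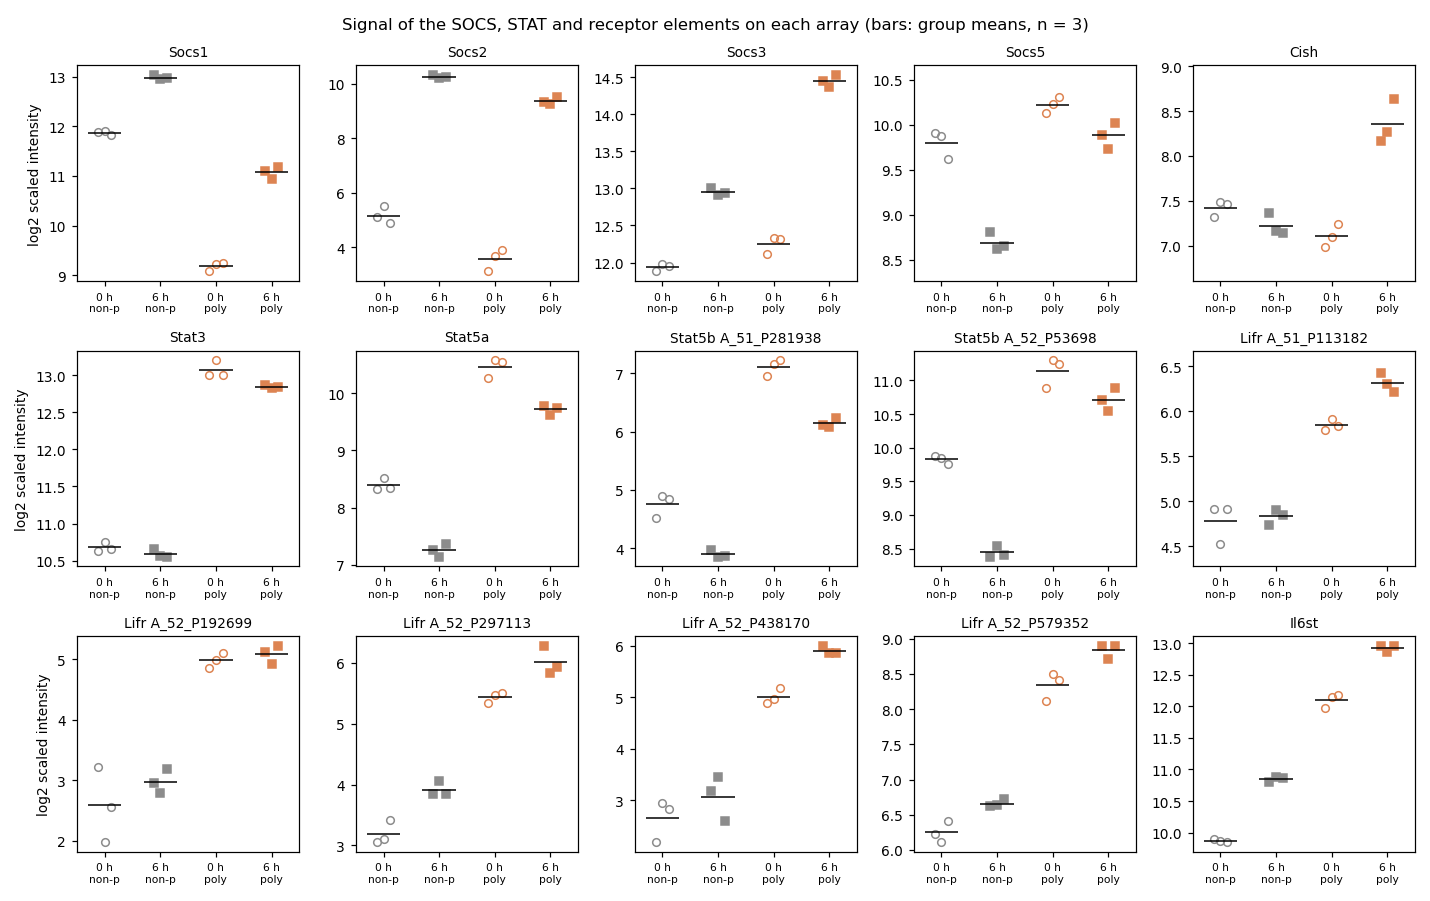
Log2 scaled intensity (vertical axis, its own range in each panel) of the 15 elements on each of the 12 arrays, with non-polysomal arrays in grey, polysomal arrays in orange, 0 h as open circles, 6 h as filled squares and the mean of 3 arrays as a bar. Socs1 and Socs2 lay lower in the polysomal than in the non-polysomal fraction at both times, and Stat3, Stat5a, Stat5b, Lifr and Il6st lay higher.

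Socs2, an inhibitor of growth hormone and STAT5 signalling, had the largest change of the 15 elements. Its non-polysomal log2 signal was 5.09, 5.51 and 4.88 at 0 h and 10.31, 10.21 and 10.25 at 6 h. Its polysomal signal was 3.11, 3.66 and 3.88 at 0 h and 9.33, 9.27 and 9.52 at 6 h. At 6 h every array was above every array of the same fraction at 0 h. The rise was 56.7-fold in the polysomal fraction (log2 5.82 ± 0.20, SE; limma adjusted p = 9.18e-09) and 34.3-fold in the non-polysomal fraction (log2 5.10 ± 0.20; limma adjusted p = 4.41e-08). On the authors' own log2 values and with normexp background correction the rise kept its sign and its call, with polysomal changes down to 3.31.

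Socs3, the main inhibitor of gp130 signalling, rose 4.57-fold in the polysomal fraction. Its polysomal log2 signal was 12.11, 12.33 and 12.32 at 0 h and 14.45, 14.36 and 14.53 at 6 h. Its non-polysomal signal was 11.88, 11.99 and 11.95 at 0 h and 13.00, 12.91 and 12.94 at 6 h. The arrays of the 2 times did not overlap in either fraction. The change was 2.19 ± 0.081 (SE) in the polysomal and 1.01 ± 0.081 in the non-polysomal fraction, with limma adjusted p-values of 1.24e-08 and 3.79e-06.

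Socs1, which blocks JAK kinases directly, rose 3.72-fold in the polysomal fraction. Its polysomal log2 signal went from 9.08, 9.23 and 9.24 at 0 h to 11.10, 10.94 and 11.18 at 6 h. Its non-polysomal signal went from 11.88, 11.91 and 11.83 to 13.03, 12.96 and 12.97. The non-polysomal arrays stood above the polysomal arrays at both times. The change was 1.90 ± 0.081 (SE) in the polysomal and 1.11 ± 0.081 in the non-polysomal fraction, with limma adjusted p-values of 2.93e-08 and 1.89e-06.

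Cish, the founding member of the family and a STAT5 target, rose in the polysomal fraction, by 2.37-fold. Its polysomal log2 signal was 6.98, 7.10 and 7.24 at 0 h and 8.17, 8.27 and 8.63 at 6 h. Its non-polysomal signal was 7.32, 7.48 and 7.46 at 0 h and 7.36, 7.17 and 7.14 at 6 h. The polysomal arrays did not overlap between the times, and the non-polysomal arrays did. The polysomal change was 1.24 ± 0.13 (SE; limma adjusted p = 1.61e-05). In the non-polysomal fraction the change was -0.20 (95% interval -0.48 to 0.093; limma adjusted p = 0.298), which did not pass the test.

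Socs5, a family member known for inhibition of EGF receptor and interleukin-4 signalling, fell in both fractions. Its non-polysomal log2 signal was 9.90, 9.87 and 9.62 at 0 h and 8.80, 8.62 and 8.65 at 6 h. Its polysomal signal was 10.13, 10.23 and 10.30 at 0 h and 9.89, 9.73 and 10.02 at 6 h. The fall was clear of the spread in the non-polysomal fraction, with a change of -1.11 ± 0.11 (SE; limma adjusted p = 1.45e-05). In the polysomal fraction the change was -0.34 (limma adjusted p = 0.0193), it was 0.089 when each array was fitted to its spike-ins by a straight line, and it did not pass the test without polysomal replicate 3 of 0 h (-0.30, limma adjusted p = 0.0663) or polysomal replicate 2 of 6 h (-0.27, limma adjusted p = 0.0741), nor without all arrays of replicate 1 (-0.39) or replicate 2 (-0.26).

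The promoter windows of Socs3, Cish and Socs1 are shown because these genes rose in the polysomal fraction and because Socs3 held the only STAT motif among the members. They are the 250 bases before the start of transcription in RefSeq, on build GRCm38.p6, written 5′ to 3′ on the strand of the gene. Capitals mark the STAT motif TTCNNNGAA. Socs3 lies on the minus strand (chr11:117969367-117969616), Cish on the plus strand (chr9:107296409-107296658) and Socs1 on the minus strand (chr16:10785537-10785786).
Socs3: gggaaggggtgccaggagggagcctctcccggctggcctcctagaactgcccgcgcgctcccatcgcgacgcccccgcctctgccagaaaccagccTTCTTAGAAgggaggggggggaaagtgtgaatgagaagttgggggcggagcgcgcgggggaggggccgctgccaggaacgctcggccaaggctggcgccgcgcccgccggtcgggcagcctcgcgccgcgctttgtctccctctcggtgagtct
Cish: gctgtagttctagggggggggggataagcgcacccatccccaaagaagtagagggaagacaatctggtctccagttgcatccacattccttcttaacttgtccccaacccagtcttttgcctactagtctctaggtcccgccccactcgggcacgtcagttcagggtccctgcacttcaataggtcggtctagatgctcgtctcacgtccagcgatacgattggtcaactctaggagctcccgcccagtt
Socs1: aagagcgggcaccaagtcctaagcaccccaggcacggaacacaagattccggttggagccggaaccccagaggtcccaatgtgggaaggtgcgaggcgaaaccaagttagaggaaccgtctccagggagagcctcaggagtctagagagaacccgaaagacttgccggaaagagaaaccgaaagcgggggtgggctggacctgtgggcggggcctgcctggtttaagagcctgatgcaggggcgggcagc
Windows were at hand for 8 of the 10 members, namely all but Socs2 and Socs5, and for 3 of these with a second start, making 11 windows. The STAT motif was found in 1 of the 11 windows, that of Socs3, where its first base is at position -154 from the start, and in 7.02% of 32851 windows of all genes. Searched on both strands in the same windows, AGAACA, a short form of the glucocorticoid receptor motif, was in the Stat3 window (16.1% of all windows). The cAMP element TGACGTCA (1.55% of all windows) was in none of the members' windows. Its shortened form TGACG, which the full element contains, was in the Cish window (17.8% of all windows). These matches describe letters in a window, not binding.

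The 4 STAT elements all fell in the polysomal fraction. Stat5a and Stat5b are close relatives that act downstream of growth hormone and prolactin. The polysomal log2 signal of Stat5a was 10.25, 10.57 and 10.53 at 0 h and 9.78, 9.62 and 9.75 at 6 h. In non-polysomal RNA the signal was 8.32, 8.52 and 8.34 at 0 h and 7.26, 7.15 and 7.37 at 6 h. All arrays at 6 h were below all arrays of the same fraction at 0 h. The change was -0.74 ± 0.11 (SE) in the polysomal and -1.14 ± 0.11 in the non-polysomal fraction (limma adjusted p = 1.98e-04 and 1.17e-05).

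Stat5b was measured by 2 elements of the same transcript accession. On A_52_P53698 the polysomal log2 signal was 10.89, 11.30 and 11.25 at 0 h and 10.71, 10.54 and 10.88 at 6 h. Its non-polysomal signal was 9.88, 9.85 and 9.76 at 0 h and 8.38, 8.54 and 8.41 at 6 h. The gap between the times was thus wider in the non-polysomal fraction, at -1.39 ± 0.12 (SE; limma adjusted p = 8.03e-06), than in the polysomal fraction, at -0.43 ± 0.12 (limma adjusted p = 0.0131). The polysomal change of this element did not pass the test without polysomal replicate 2 of 6 h (-0.34, limma adjusted p = 0.0521), nor without all arrays of replicate 2 (-0.27) or replicate 3 (-0.46). On A_51_P281938 the polysomal signal went from 6.94, 7.15 and 7.22 to 6.11, 6.08 and 6.24 and the non-polysomal signal from 4.52, 4.89 and 4.85 to 3.98, 3.86 and 3.88. Here both fractions fell, with a polysomal change of -0.96 ± 0.11 and a non-polysomal change of -0.85 ± 0.11 (limma adjusted p = 4.23e-05 and 1.43e-04). With normexp background correction the non-polysomal change of this element was -0.17 and did not pass (limma adjusted p = 0.0837).

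Stat3, the STAT of gp130 signalling, had the smallest called change. Its polysomal log2 signal was 13.01, 13.20 and 13.01 at 0 h and 12.87, 12.82 and 12.84 at 6 h. The non-polysomal signal of Stat3 was 10.63, 10.76 and 10.65 at 0 h and 10.66, 10.56 and 10.56 at 6 h. Only the polysomal arrays did not overlap between the times. The polysomal change was -0.22 ± 0.075 (SE; limma adjusted p = 0.0259) and the non-polysomal change -0.090 (95% interval -0.26 to 0.079; limma adjusted p = 0.433). The polysomal call was lost on leaving out polysomal replicate 2 of 0 h (-0.16, limma adjusted p = 0.0805) or any of the 3 polysomal arrays of 6 h (-0.24 to -0.21), and on leaving out all arrays of replicate 1, 2 or 3 (-0.27, -0.15 and -0.25). When each array was fitted to its spike-ins by a straight line, the polysomal change was -0.0089 for Stat3, -0.27 for Stat5b A_51_P281938 and -0.061 for Stat5b A_52_P53698, and these 3 did not pass.

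Of the 6 receptor elements, 5 rose in the polysomal fraction and 3 in the non-polysomal fraction. Il6st encodes gp130, the chain shared by the receptors of the interleukin-6 family. Its polysomal log2 signal was 11.98, 12.14 and 12.17 at 0 h and 12.96, 12.86 and 12.95 at 6 h. In the non-polysomal fraction its signal was 9.90, 9.87 and 9.85 at 0 h and 10.81, 10.88 and 10.87 at 6 h. The arrays of the 2 times did not overlap in either fraction. The change was 0.83 ± 0.072 (SE) in the polysomal and 0.98 ± 0.072 in the non-polysomal fraction (limma adjusted p = 4.29e-06 and 1.97e-06). With quantile normalization the polysomal change was 0.0036 (limma adjusted p = 0.992) and the non-polysomal change kept its call.

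Lifr, the chain that pairs with gp130 in the receptor of Lif, was measured by 5 elements of 1 transcript accession, which are no replicates of each other. On A_52_P579352 the polysomal log2 signal was 8.11, 8.49 and 8.41 at 0 h and 8.90, 8.71 and 8.89 at 6 h. Its non-polysomal signal was 6.23, 6.12 and 6.41 at 0 h and 6.62, 6.63 and 6.73 at 6 h. Arrays at 6 h lay above those at 0 h in both fractions, with changes of 0.49 ± 0.12 (SE) and 0.41 ± 0.12 (limma adjusted p = 0.00486 and 0.0176). Over the 5 elements, the polysomal change ran from 0.10 to 0.90 and passed the test for 4. The non-polysomal change ran from 0.050 to 0.72 and passed for 2. Without all arrays of replicate 1, none of the 4 polysomal changes passed (0.35 to 0.78). The non-polysomal change of A_52_P579352 did not pass without non-polysomal replicate 1 (0.40) or 2 (0.34) of 0 h or replicate 3 of 6 h (0.37), nor without any whole replicate (0.35 to 0.45). With the 75th percentile or quantile scaling no Lifr element passed in the polysomal fraction, and on A_51_P113182 the change was then -0.011 and 0.15. Relative to the median of all elements, the polysomal changes of the 5 elements were -0.43 to 0.36.

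**Figure D2:**
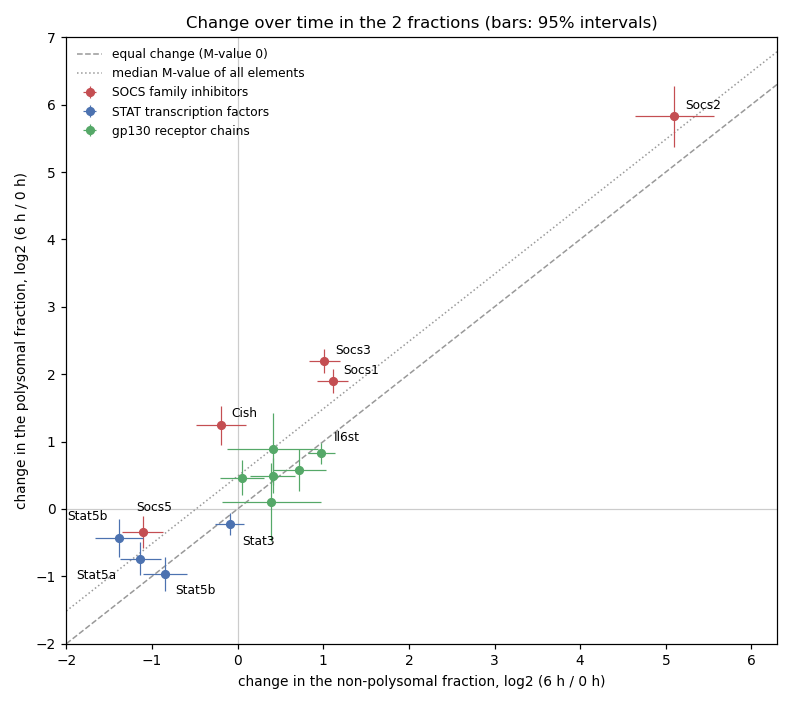
Change from 0 h to 6 h in the polysomal fraction (vertical axis, log2) against that in the non-polysomal fraction (horizontal axis, log2) for the 15 elements, with 95% intervals, coloured by role. The broken line marks equal change and the dotted line the median M-value of all elements, 0.49. Cish, Socs3 and 1 Stat5b element lie farthest above the dotted line, and Il6st and Stat3 lie below it.

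The second comparison, the one named in the study's methods, asked whether an mRNA shifted between the fractions. It is the M-value, the polysomal change minus the non-polysomal change on the log2 scale, and it tests the interaction of time and fraction. The M-value was above 0 and passed the test for 5 of 15 elements, those of Cish, Socs3, Socs1, Socs5 and 1 of 2 Stat5b elements, against 32% of all elements. It was below 0 and passed for 0 of 15, against 4.01% of all elements, and 0 of 15 were below 0 with an unadjusted p under 0.05. Over the elements well above background on every array of at least 1 group, as all 15 were, 47.1% were called above and 6.27% below 0. The median M-value was 0.41 over the 15 elements and 0.49 over all.

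Cish had the highest M-value, 1.44 ± 0.18 (SE; limma adjusted p = 2.37e-04), with 1.14, 1.47 and 1.71 within slides 1, 2 and 3, each of which held the arrays of the same replicate number, 1 of every group. That of Socs3 was 1.18 ± 0.12 (limma adjusted p = 5.34e-05), with 1.22, 1.11 and 1.22 within slides. Both exceeded the median of all elements, by 0.95 for Cish and 0.70 for Socs3.

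The M-value was 0.78 ± 0.11 (SE; limma adjusted p = 5.42e-04) for Socs1 and 0.77 ± 0.15 (limma adjusted p = 0.0033) for Socs5. Relative to the median of all elements these amounted to 0.30 and 0.28. The 2 genes reached this value by different routes, Socs1 by a larger rise in the polysomal fraction and Socs5 by a larger fall in the non-polysomal fraction. The Socs5 call was lost without replicate 1 in all groups (0.72, limma adjusted p = 0.0571).

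Stat5b element A_52_P53698 had an M-value of 0.96 (95% interval 0.56 to 1.35; limma adjusted p = 0.00207) and A_51_P281938 one of -0.11 (-0.47 to 0.25; limma adjusted p = 0.593), which passed below 0 with normexp (-0.25, limma adjusted p = 0.0346) and on the authors' log2 values (-0.28, limma adjusted p = 0.0484). These elements of 1 gene disagreed, and the mean of both, 0.42, did not pass the test (limma adjusted p = 0.0528). Stat5a stood between them at 0.40 (0.058 to 0.74; limma adjusted p = 0.0662).

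The M-value of Socs2 was 0.72 (95% interval 0.075 to 1.37; limma adjusted p = 0.0772), and it was -0.44 (limma adjusted p = 0.00255) with normexp background correction, -0.31 with quantile normalization and -0.24 on the authors' log2 values. Its sign was therefore not settled, and the 0 h polysomal signal on which it rests was the one near background. For Stat3 and Il6st the M-values were -0.13 (-0.37 to 0.11) and -0.15 (-0.38 to 0.075). Of the 5 Lifr elements, 3 were well above background on all 12 arrays, with M-values of -0.14, 0.086 and 0.41, of which 0 passed. On A_52_P192699 and A_52_P438170 a non-polysomal group was well above background on no array, so no exact M-value is given.

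Scaling bears on these values. Scaling to the 75th percentile is an offset of each array and moves the M-value of every element by the same amount. Quantile normalization and a straight line through the spike-ins move it by amounts that differ between elements. With the 75th percentile the median M-value of all elements was 0.044, and 15% of elements were called above and 13.3% below 0. The same 5 elements passed above 0 then, with M-values of 1.00 for Cish, 0.74 for Socs3, 0.51 for Stat5b, 0.34 for Socs1 and 0.33 for Socs5. The elements of Stat3 (-0.58), Il6st (-0.59) and Stat5b element A_51_P281938 (-0.55) passed below 0. With quantile normalization 4 of the 5 passed above 0, all but Socs5 (0.30, limma adjusted p = 0.0647), and Stat3 and Il6st passed below 0. Under these 3 scalings Cish and Socs3 lay above the median of all elements, and Stat3 and Il6st lay below it. When each array was fitted to its spike-ins by a straight line, that median was 1.42. The M-values were then 2.14 for Cish, 1.44 for Stat5b A_52_P53698, 1.36 for Socs3, 1.31 for Socs5 and 1.20 for Socs1. Socs3, Socs5 and Socs1 thus lay below the median. Stat3 (0.15) and Il6st (0.14) changed sign by this fit.

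**Figure D3:**
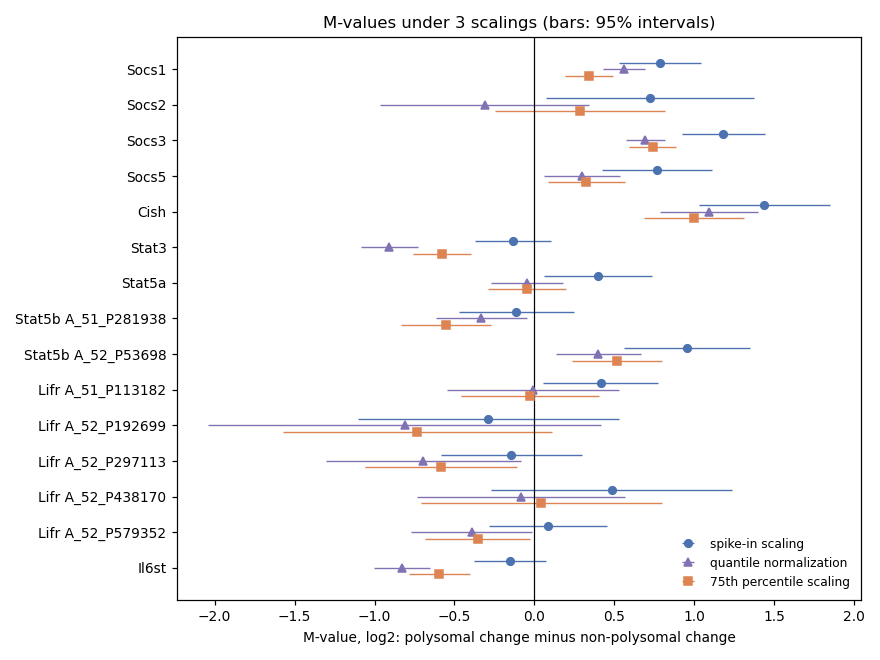
M-value (horizontal axis, log2) with its 95% interval for each of the 15 elements under spike-in scaling (circles), quantile normalization (triangles) and 75th percentile scaling (squares). Cish and Socs3 lie above 0 under all 3, and the values of Stat3 and Il6st are near 0 with spike-ins and below 0 with the other scalings. Values of Lifr A_52_P192699 and A_52_P438170 are drawn but not exact, since a non-polysomal group was well above background on no array.

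The third comparison asked in which pool the signal of each mRNA was higher before and after induction. Other gradient fractions were in neither pool. A difference of 0 is thus equal scaled signal in the pools, not an equal split of a gene's mRNA. With spike-in scaling, all 10 STAT and receptor elements were richer in the polysomal pool at both times, and Socs1 and Socs2 in the non-polysomal pool. At 0 h the polysomal signal was higher for 12 of 15 elements and lower for 2, against 37% and 15% of all elements. At 6 h it was higher for 13 and lower for 2, against 59.9% and 9.99% of all elements. Over the elements well above background on every array of at least 1 group, it was higher for 58.7% and lower for 22.4% at 0 h. At 6 h these shares were 70.3% and 15.5%. The median difference between the fractions over the 15 elements was 2.06 at 0 h and 2.10 at 6 h, and over all elements 0.15 and 0.68. Over the 20368 elements well above background on all arrays it was 0.88 and 1.32. With the 75th percentile 9 elements were higher and 5 lower at 0 h, against 23.9% and 51.4% of all elements. At 6 h 10 were higher and 2 lower, against 23.5% and 47.9% of all elements. The median of all elements was then -0.74 at 0 h and -0.66 at 6 h.

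For Stat3 the polysomal signal exceeded the non-polysomal signal by 2.39 ± 0.075 (SE, log2) at 0 h, or 5.24-fold, and by 2.26 at 6 h. For Il6st the differences were 2.22 and 2.07, and for Stat5a 2.06 and 2.46. On the Stat5b elements the difference went from 2.35 to 2.24 and from 1.32 to 2.27. These differences had limma adjusted p-values of 4.63e-06 or lower and kept their sign under all scalings tried.

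The 5 Lifr elements had differences of 1.07 to 2.398 at 0 h and 1.49 to 2.83 at 6 h. On A_51_P113182, scaling to the 75th percentile gave 0.18 at 0 h and 0.15 at 6 h, which did not pass (limma adjusted p = 0.251 and 0.334). On 2 of the Lifr elements the non-polysomal signal of a group was not well above background on any array, so only a bound holds. The polysomal signal was at least 4.25-fold higher on A_52_P438170 at 0 h and at least 4.22-fold higher on A_52_P192699 at 6 h (limma adjusted p = 8.36e-06 and 3.41e-05).

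Socs1 lay 6.47-fold lower in the polysomal than in the non-polysomal pool at 0 h (log2 -2.69 ± 0.081, SE; limma adjusted p = 1.89e-09). At 6 h the difference was -1.91. For Socs2 it was -1.61 ± 0.20 (limma adjusted p = 5.16e-05) and then -0.89 ± 0.20 (limma adjusted p = 0.0034). Both genes thus kept more signal in the non-polysomal pool, under every scaling tried.

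Socs3, Socs5 and Cish lay near equality at 0 h and on the polysomal side at 6 h. The polysomal minus non-polysomal difference was 0.31 for Socs3, 0.42 for Socs5 and -0.31 for Cish at 0 h, of which the last did not pass the test (limma adjusted p = 0.0697). The difference at 0 h did not pass for Socs3 without replicate 2 (0.30) or 3 (0.29), nor for Socs5 without replicate 3 (0.29). At 6 h it was 1.496, 1.19 and 1.13. With the 75th percentile the differences at 0 h were -0.58, -0.47 and -1.20, and those at 6 h were -0.14 for Socs5 and -0.21 for Cish, so on which side of equality these genes lay depended on the scaling, except for Socs3 at 6 h and for Cish at 0 h, whose difference was below 0 under every alternative (-1.20 to -0.22).

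**Figure D4:**
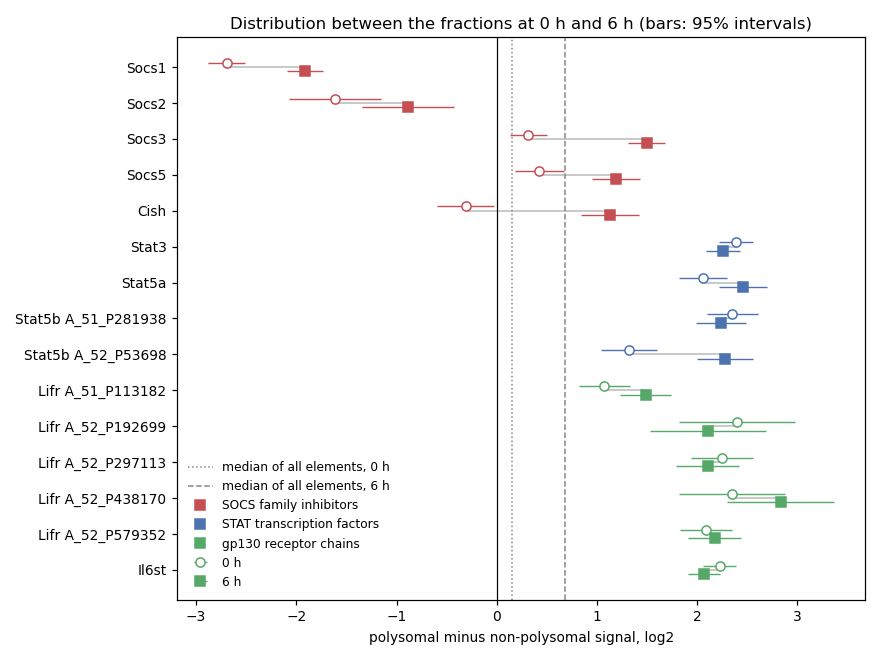
Polysomal minus non-polysomal signal (horizontal axis, log2) of the 15 elements at 0 h (open circles) and 6 h (filled squares), with 95% intervals and spike-in scaling. Dotted and broken lines mark the median of all elements at 0 h and 6 h, 0.15 and 0.68. Socs1 and Socs2 lie left of 0 and the STAT and receptor elements right of both medians.

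Of a list of 84 other genes of the pathway, 82 were on the array, and 67 had an element well above background on every array of at least 1 group. This filter favours genes that are high in some group, so the counts describe those 67 and not the list. In the polysomal fraction 44 of the 67 rose and 11 fell, in the non-polysomal fraction 37 rose and 15 fell, and 38 had an M-value called above and 4 below 0. Over all elements, 50.7% rose and 11.7% fell in the polysomal fraction, 20.6% rose and 19.6% fell in the non-polysomal fraction, and 32% of M-values were above and 4.01% below 0. Over the 25025 elements that passed the same filter these shares were 56.7% and 18.6%, 32.7% and 30.9%, and 47.1% and 6.27%, and the counts by role that follow are to be read against them. The median change in the polysomal fraction was 0.97, against 0.54 over all elements. With the 75th percentile 18 of the 67 fell in the polysomal fraction, against 20.75% of all elements under that scaling. Then 22 M-values were above and 15 below 0, against 15% and 13.3% of all elements.

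Among ligands, 4 of 8 measured genes rose and 2 fell in the polysomal fraction. Il11, a cytokine that signals through gp130, rose 109-fold there, from a mean log2 signal of 5.11 ± 0.13 to 11.88 ± 0.24 (SD, n = 3). Clcf1, a further ligand of the family, rose 41.1-fold, from 5.37 ± 0.13 to 10.73 ± 0.025. In the non-polysomal fraction both rose as well, by 5.50 and 4.50 on the log2 scale.

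Of 16 other receptors, 11 rose and 4 fell in the polysomal fraction. Epor, the erythropoietin receptor, had a change of -2.62 in the polysomal and -2.33 in the non-polysomal fraction. Ifngr2, a chain of the interferon gamma receptor, rose by 1.72 and 1.42. Like Socs1, its signal was lower in the polysomal than in the non-polysomal pool, with differences of -2.07 at 0 h and -1.77 at 6 h.

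Among the 4 kinases, Jak2, which couples to growth hormone and gp130 receptors, rose by 1.40 in the polysomal fraction and 0.78 in the non-polysomal fraction. Tyk2 had changes of -0.61 and -0.49. Stat2, which acts in the type I interferon response, had a change of -2.26 in the polysomal and -1.52 in the non-polysomal fraction, with an M-value of -0.74 (limma adjusted p = 5.72e-04).

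Of the 3 other SOCS genes, Socs4 rose by 1.20 ± 0.15 (SE) in the polysomal fraction, where its non-polysomal change of 0.38 did not pass the test (limma adjusted p = 0.0715). Socs6 rose by 1.07 and 0.80 in the 2 fractions. Among other inhibitors, phosphatases and partners of SOCS proteins, 10 of 14 rose and 0 fell in the polysomal fraction, with 0 of 14 lower in the non-polysomal fraction. Ptpn1, a phosphatase that acts on JAK kinases, rose by 1.58 and 1.08. Rnf7, a RING protein of cullin ligases, rose by 1.54 and 1.02. Its signal too was higher in the non-polysomal pool, with differences of -2.96 at 0 h and -2.44 at 6 h.

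STAT target genes rose for 18 of 21 in the polysomal and 17 of 21 in the non-polysomal fraction, and 2 and 3 fell. Cebpb, an early transcription factor of adipogenesis, rose by 4.36 in the polysomal and 2.82 in the non-polysomal fraction, with an M-value of 1.54 (limma adjusted p = 2.35e-05). Lcn2, a secreted lipocalin, rose by 4.33 and 3.10.

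The genes most like Socs2 in their log2 signal over the 12 arrays were Mpc2, a subunit of the mitochondrial pyruvate carrier, Whrn, which encodes the scaffold protein whirlin, and Hilpda, a protein of lipid droplets (Pearson r = 0.999, 0.998 and 0.998 among 16301 elements of named genes, without clone or predicted names, that were well above background on all arrays). Those most like Stat5b element A_51_P281938, which had the largest fall in the polysomal fraction, were Spg11, Ppp1r12a and Dag1 (r = 0.999, 0.998 and 0.998). Since the 12 arrays form 4 groups, such values rest on 4 group means and describe a shared pattern. The polysomal rise of Mpc2, Whrn and Hilpda was 2.16, 3.74 and 3.69, smaller than that of Socs2 on the same scale.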

How the data were processed

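RNA of 3T3-L1 cells from 2 gradient pools and 2 times was hybridised to 12 one-colour Agilent arrays. The deposited scanner files hold intensities per spot, which the authors obtained with Feature Extraction 10.7.1.1 as background-subtracted and detrended values that were not normalized between arrays. The authors also deposited log2 values for each element, and these served as an alternative. On every array their Pearson r with the log2 median pixel intensity was 1 after rounding. Spots called outliers were left out, log2 intensities were averaged over the spots of an element, and each array was shifted by the mean of 10 spike-in transcripts with 32 spots each. The 4 groups were fitted together in R 4.3.3 with limma 3.58.1 (lmFit, eBayes), with Benjamini-Hochberg adjustment over all elements tested in a contrast and a call at an adjusted p below 0.05. A value is not well above background where the software says so on an array, and a fold against a group without such an array is given as a lower bound. Intervals are 95% intervals of the fit. Precision was limited by 3 arrays a group, and p-values measure the spread between these arrays.

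Elements were paired with symbols through RefSeq accessions. All elements of the 10 members are named. Of each role in the pathway list, up to 2 genes with the largest called change in the polysomal fraction are named, by their element with the highest mean signal, and 1 gene that this rule chose is not reported here. The genes most alike were those with the 3 highest Pearson correlations to the member element with the largest rise or fall. The members and lists were chosen with earlier results of these data known. The script was checked on simulated data. Alternatives were 3 other scalings, the authors' table, normexp (offset 50, on median pixels of spot and background), a filter on dim elements, outlier spots kept, the replicate number as a block, a trended prior, each array or replicate left out, the mean of a gene's elements and a call that also needs a 2-fold change.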

Additional observations from a re-analysis of the deposited data

Results flagged for a closer look

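By the interaction of time and fraction in the limma fit, the change over time differed between the fractions for 5 of 15 member elements. They were called above 0, as were 32% of all elements and 47.1% of those well above background on every array of at least 1 group. The difference of the changes on the log2 scale was 0.784 for Socs1, 1.18 for Socs3, 0.767 for Socs5, 1.44 for Cish and 0.956 for Stat5b (A_52_P53698). The other Stat5b element, A_51_P281938, had a difference of -0.11 and was not called. All 5 called differences were above 0 within each of the 3 slides, but they were called from these same arrays, so this is no separate support. The median of this difference over all elements was 0.49, and it was 0.48 over elements that were well above background on no array.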

How the results depend on the processing

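Of 1875 comparisons of a member value with its value under an alternative, 1766 kept their side of the threshold. Of these, 29 had the sign turned while passing in neither fit. With the sign kept, 49 lost the call and 44 gained it. The other 16 had the sign turned and passed in the main fit, the alternative or both, so they include lost and gained calls. The cause of these changes was not tested. With the 75th percentile, 5 member elements rose in the polysomal fraction (22.75% of all elements). Then 3 M-values were called below 0 (13.3% of all), and 5 elements were lower in the polysomal pool at 0 h (51.4% of all). The polysomal change of Lifr A_51_P113182 was then -0.011, the M-value of Ifngr2 was -0.14, and the difference between the pools was -0.58 for Socs3 and -0.47 for Socs5 at 0 h and -0.14 for Socs5 and -0.21 for Cish at 6 h. With quantile normalization 4 elements rose in the polysomal fraction (21.3% of all elements), 2 M-values were called below 0 (14.6% of all) and 5 elements were lower at 0 h (22.7% of all). The differences were -0.42 for Socs3 and -0.46 for Socs5 at 0 h and -0.17 for Socs5 and -0.063 for Cish at 6 h, and the M-value of Ptpn1 was -0.12. When arrays were fitted to their spike-ins by a straight line, 1 element fell in the polysomal fraction (5.39% of all elements). By that fit 12 M-values were called above 0 (against 81.1% of all elements), and the polysomal change of Socs5 was 0.089. M-values were then 0.45 for Epor, 0.49 for Tyk2, 0.75 for Lifr A_52_P297113 and 0.75 for Stat5b A_51_P281938. On the authors' log2 values 8 M-values were called above and 1 below 0 (71.5% and 3.60% of all elements), and that of Lifr A_52_P192699 was 0.33. With normexp 9 were above and 2 below 0 (78.7% and 3.84% of all), with -0.44 for Socs2, 0.28 for Lifr A_52_P297113 and 0.29 for Lifr A_52_P192699. Those of Lifr A_52_P192699 are not exact, since the element was well above background on no non-polysomal array of 6 h. With the filter on dim elements 8 M-values were above 0 (52.5% of those tested). A 2-fold rule left 4 elements higher and 0 lower in the polysomal fraction, 3 higher in the non-polysomal fraction, 2 M-values above 0 and 1 element lower in the polysomal pool at 6 h. On leaving out arrays or replicates, 5 to 9 elements rose and 2 to 5 fell in the polysomal fraction. For the 2-fold rule and for arrays left out, the shares of all elements were not counted.

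For the pathway list, M-values called above 0 were 22 with the 75th percentile, 16 with quantile normalization and 60 with the straight line, and those below 0 were 15, 18 and 1. Over all elements 15%, 13.9% and 81.1% were above 0 under these scalings, and 13.3%, 14.6% and 0.714% were below. Without replicate 3 the counts for the list were 20 above and 1 below 0, and the shares of all elements were not counted there. Under these 3 scalings 18, 23 and 7 genes of the list fell in the polysomal fraction, against 20.75%, 22.2% and 5.39% of all elements. The polysomal pool was lower for 32 genes at 0 h and 30 at 6 h with the 75th percentile (51.4% and 47.9% of all elements). With quantile normalization it was lower for 27 and 23 (22.7% and 22.2% of all elements). It was higher at 6 h for 28 and 32 under these 2 scalings (23.5% and 28.8% of all elements).

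The replicate number was also the number of the slide, so the replicate block is the slide as a block. With it, 75 of 75 member values kept their call, and the M-value of Ifngr2 did not pass (0.30, limma adjusted p = 0.0634). Arrays of the same number correlated in their deviations from the group means by -0.097 to 0.42 over 18 pairs, with 4 pairs over 0.1. For arrays of different number and group this was -0.38 to 0.21 over 36 pairs, with 6 over 0.1. The median was 0.068 for the same number and -0.038 for different numbers.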
